A study of Mus musculus with 7 samples.

Results

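Msln, which encodes mesothelin, and Wfdc2, which encodes the secreted protein also called HE4, were followed through 7 single-cell libraries of mouse atypical teratoid rhabdoid tumours (ATRT), brain tumours of early life that lack the SWI/SNF subunit Smarcb1. The pair are 2 of the 19415 genes listed over all 7 count tables, and they were chosen because earlier results on these tables showed both in MYC tumours. Their levels, their detection rates and their overlap with Krt8 and Col1a2 are therefore given as descriptions, without a test. The cells examined were those with 0 UMIs (unique molecular identifiers, 1 per captured transcript) of Ptprc, the pan-leukocyte gene CD45: 15488 of 21899 cells that passed quality filters.

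Mesothelin is made as a precursor that furin-type proteases cut into a shed part and a part held at the cell surface by a glycosylphosphatidylinositol (GPI) anchor, where it binds the mucin Muc16. It normally marks the mesothelium that lines the body cavities and is also made in mesothelioma and in ovarian and pancreatic carcinomas. Wfdc2 carries whey acidic protein disulfide-core domains, as do several protease inhibitors such as Slpi, and is made by epithelium of the airways and the reproductive tract. Krt8 encodes a keratin of simple epithelia, and Col1a2 a chain of type I collagen made by mesenchymal cells.

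All tumours arose in Rosa26-creERT2::Smarcb1 fl/fl mice, in which a Cre recombinase driven by the ubiquitous Rosa26 promoter was switched on by 50 mg/kg tamoxifen given to the pregnant mother at day 6.5 post coitum. Every library therefore carried the deletion in the cells where Cre acted, and no undeleted tissue was analysed here. The MYC subgroup has 5 libraries: replicate 1 (basal cerebrum, 12 weeks), replicate 2 (trigeminal nerve, 19 weeks), replicate 3 (lateral cerebellum, 19 weeks), replicate 4 (trigeminal nerve, 21 weeks) and replicate 5 (basal cerebrum, 27 weeks). MYC replicates 2 and 3 carry the same number in their titles and were treated as tumours of a single mouse, which makes 4 MYC animals (A, replicate 1; B, replicates 2 and 3; C, replicate 4; D, replicate 5). The SHH subgroup has 2 libraries of 2 animals, both from the striatum and subventricular zone, at 14 weeks (replicate 1) and 16 weeks (replicate 2). Subgroup and site of the SHH tumours cannot be told apart, because no MYC tumour lay at that site.

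The assay captures transcripts by their poly(A) tail and reads from the 3′ part. The bases shown here lie near the end of each annotated transcript, around its last AATAAA polyadenylation signal (in capitals). They stop short of the annotated end, which lies 19 or 21 bases past the signal in Msln and 31 in Wfdc2. No source used here places reads along the transcript. Both genes carry this canonical hexamer, and both Msln transcripts with a RefSeq match share the same stretch.
Msln: cttgaactcAATAAAcagtggcatatgctc
Wfdc2: tttctaaccAATAAAgtgatcgctttcagc
In the GENCODE annotation of GRCm38, the assembly that mm10 names, Msln (ENSMUSG00000063011.7) lies on the minus strand at chr17:25748613-25754378, in 17 or 16 exons. Its family member Mslnl lies on the opposite strand with its 3′ end 283 bases from that of Msln, and the annotated genes do not overlap. Wfdc2 (ENSMUSG00000017723.11) lies on the plus strand at chr2:164562413-164568510 with 5 exons, 1185 bases from Spint3 on the opposite strand. Wfdc6a, of the same family, is 11009 bases away.

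The libraries differed widely in size and depth. Cells with 0 Ptprc UMIs numbered 138 to 831 in MYC replicates 1 to 4, 10246 in MYC replicate 5, and 2324 and 1450 in SHH replicates 1 and 2. Their median depth ran from 1509 UMIs (MYC replicate 4) to 10966 (MYC replicate 3). MYC replicate 5 alone held 10246 of the 15488 cells, so values are given per library and never pooled over cells. The study's design text states 24199 cells, the tables hold 24433 barcodes, and 23938 passed the quality filters before doublets were removed. Of 24202 distinct barcodes, 230 occurred in more than 1 library. Since a Ptprc transcript is easily missed, a stricter class of immune-low cells was also used: 0 Ptprc UMIs and at most 0.1% of UMIs from a list of 12 haematopoietic genes. It held 179, 120, 109, 86 and 7716 cells in MYC replicates 1 to 5, and 482 and 1099 in SHH replicates 1 and 2. Replicates are animals. Between MYC and SHH, p-values weigh the difference against the spread between these few animals. In comparisons of cells inside animals, they weigh the difference against how it varies over animals. In both, edgeR estimates that variation partly from all genes together.

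Msln was present in all 5 MYC tumours at all 3 MYC sites and was not listed in either SHH table. Among cells with 0 Ptprc UMIs it was detected in 115 of 232 cells of MYC replicate 1 (49.6%, Wilson 95% interval 43.2 to 56.0%), 55 of 267 of replicate 2 (20.6%, 16.2 to 25.9%), 78 of 138 of replicate 3 (56.5%, 48.2 to 64.5%), 58 of 831 of replicate 4 (6.98%, 5.44 to 8.92%) and 844 of 10246 of replicate 5 (8.24%, 7.72 to 8.79%). The level over these cells in CPM (the gene's UMIs divided by all UMIs of the cells, times 1000000) was 740 in MYC replicate 1, 419.7 in replicate 2, 851 in replicate 3, 240.4 in replicate 4 and 48.6 in replicate 5. Over the 4 MYC animals this is 409 ± 319.9 CPM (SD, n = 4), and every MYC library lay above the SHH libraries. Each table lists only genes seen in 3 or more barcodes, so up to 2 Msln-positive barcodes could be hidden in each SHH library, and no fold is given against them. Wilson intervals and the Poisson intervals of levels cover counting error only. The cells counted in each come from 1 tumour and are not replicates. Whether 2 intervals overlap is thus a description, and overlap does not show equal shares or levels.

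**Figure D1:**
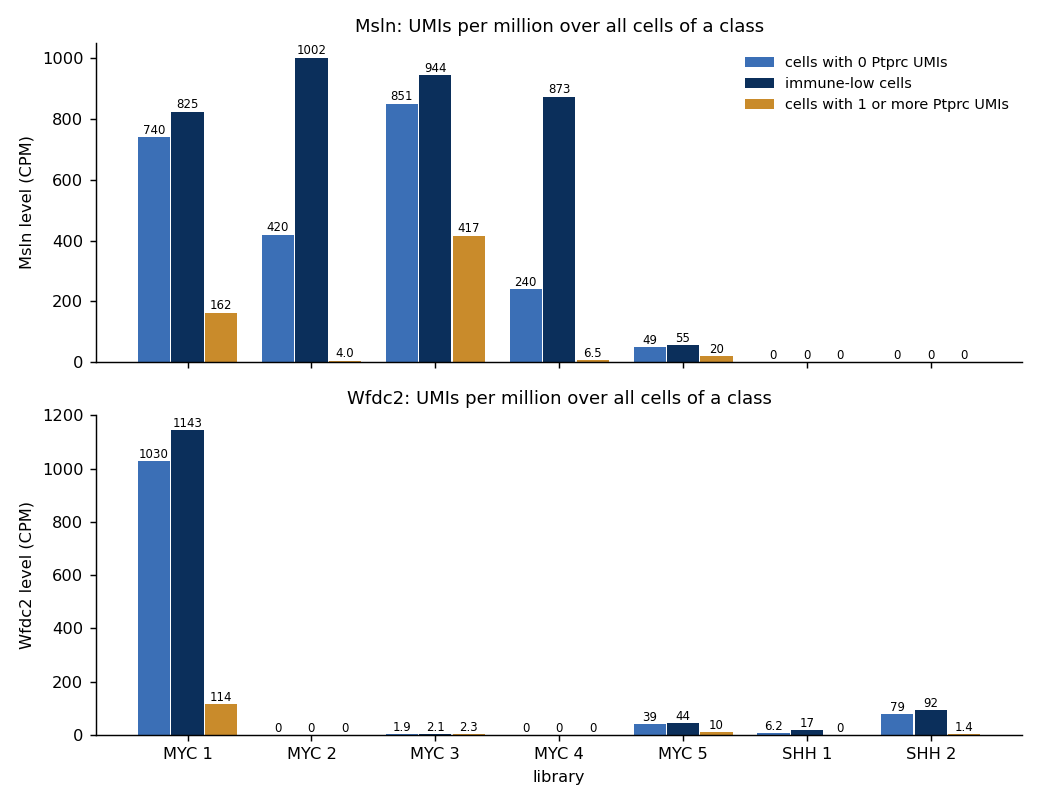
Level of Msln (top) and Wfdc2 (bottom) in CPM, summed over all cells of a class, in each of 7 libraries; light blue bars are cells with 0 Ptprc UMIs, dark blue bars immune-low cells, ochre bars cells with 1 or more Ptprc UMIs, and each bar is 1 library without an error bar. Msln stood at 825 to 1002 CPM in immune-low cells of MYC replicates 1 to 4 and at 55.2 CPM in replicate 5, whereas Wfdc2 stood at 1143 CPM in MYC replicate 1 and at 92.4 CPM or less elsewhere.

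Cells with 0 Ptprc UMIs still held haematopoietic transcripts: the 12-gene list summed to 1426 to 8461 CPM in MYC, highest in replicate 4, and to 24233 and 4565 CPM in SHH. Setting aside cells that carry them brought 4 of the 5 MYC libraries close together. In immune-low cells the Msln level was 1002 CPM in MYC replicate 2 (Poisson 95% interval 936 to 1071), 944 in replicate 3 (894 to 996), 873 in replicate 4 (791 to 962), 825 in replicate 1 (789.9 to 861) and 55.2 in replicate 5 (53.3 to 57.1). In that order the intervals of neighbours overlap among replicates 2, 3, 4 and 1, but that of replicate 1 lies below those of replicates 2 and 3. Replicate 5 lies far below all of them. Replicates 2 and 3, a trigeminal and a cerebellar tumour taken as the same animal, had overlapping intervals. Detection was 61.5%, 41.7%, 67.9%, 59.3% and 9.94% of immune-low cells in MYC replicates 1 to 5. Thinning every cell to 1000 UMIs, which removes differences of depth, gave 25.1%, 31.7%, 40.4%, 37.6% and 3.59%. Replicate 5 was thus low by share and by level, at full and at equal depth. It was 1 of the 2 libraries sequenced at 2 time points, and it was the oldest MYC tumour and by far the largest library. The part of these properties in its Msln level was not tested.

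Cells with 1 or more Ptprc UMIs, called leukocytes here, were read as a reference. Whether Msln UMIs in them came from free RNA, from mixed droplets or from the cells themselves was not tested, and MYC replicate 3 has no doublet scores. There Msln was found in 20 of 113 cells of MYC replicate 1 (161.8 CPM), 5 of 176 of replicate 2 (4.02 CPM), 6 of 45 of replicate 3 (417 CPM), 7 of 1398 of replicate 4 (6.54 CPM) and 111 of 3146 of replicate 5 (19.7 CPM). Median depths in these cells were 5167, 6582, 6164, 1853 and 4667 UMIs. In all 5 libraries the level was below that of the Ptprc-negative cells of the same library, and so was the share, also after thinning (6.19%, 0%, 6.67%, 0.301% and 0.826%). A few cells carried most of it: in MYC replicate 3, 5 cells with 10 or more Msln UMIs held 98.9% of the Msln UMIs, and in replicate 1, 3 such cells held 85.4%.

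Msln counts were concentrated in a minority of cells. A cell with 10 or more Msln UMIs was called high, a limit set after the counts were seen. High cells were 46 of 232 in MYC replicate 1, 28 of 267 in replicate 2, 32 of 138 in replicate 3, 18 of 831 in replicate 4 and 93 of 10246 in replicate 5. They held 90.1%, 90.2%, 87.5%, 63.9% and 43.5% of all Msln UMIs of their libraries. The highest single cells held 134, 60, 127, 30 and 55 Msln UMIs. High cells made up 0.908% of the replicate 5 cells, against 2.17% to 23.2% in the other 4 MYC libraries.

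**Figure D2:**
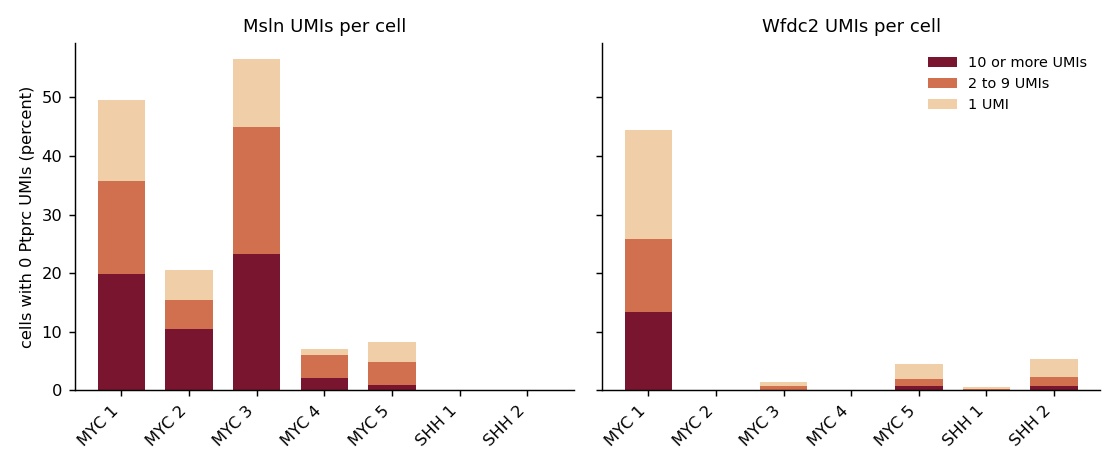
Share of cells with 0 Ptprc UMIs (percent) that held 1, 2 to 9, or 10 or more UMIs of Msln (left) or Wfdc2 (right) in each library; each stacked bar is 1 library. High Msln cells made up 19.8% and 23.2% of MYC replicates 1 and 3 and 0.908% of replicate 5, and high Wfdc2 cells 13.4% of MYC replicate 1.

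Wfdc2 followed another pattern, with high values in a single tumour. It was detected in 103 of 232 cells of MYC replicate 1 (44.4%, Wilson 95% interval 38.1 to 50.8%), 452 of 10246 of MYC replicate 5 (4.41%, 4.03 to 4.83%), 77 of 1450 of SHH replicate 2 (5.31%, 4.27 to 6.59%), 13 of 2324 of SHH replicate 1 (0.559%, 0.327 to 0.955%) and 2 of 138 of MYC replicate 3 (1.45%, 0.398 to 5.13%). It was not listed in MYC replicates 2 and 4. The level was 1029.6 CPM in MYC replicate 1, 79.1 in SHH replicate 2, 39.5 in MYC replicate 5, 6.19 in SHH replicate 1 and 1.89 in MYC replicate 3 (3 UMIs, Poisson 95% interval 0.39 to 5.52). The groups overlap: over animals the level was 267 ± 508 CPM in MYC (SD, n = 4) and 42.6 ± 51.5 CPM in SHH (SD, n = 2). SHH replicate 2 was above 3 of the 4 MYC animals.

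By site, both tumours of the basal cerebrum held Wfdc2, at 1143 and 43.5 CPM in immune-low cells (MYC replicates 1 and 5). Neither trigeminal tumour had it listed, and the lateral cerebellar tumour had 3 UMIs. Msln was not divided in that way, since the trigeminal and cerebellar tumours had 873 to 1002 CPM. With 1 or 2 animals per site, no test of site was made. Wfdc2 high cells numbered 31 in MYC replicate 1, 73 in MYC replicate 5, 1 in SHH replicate 1 and 11 in SHH replicate 2. They held 95.4%, 74.2%, 42.9% and 67.9% of the Wfdc2 UMIs of those libraries, and 1 cell of MYC replicate 1 held 532. Among leukocytes (1 or more Ptprc UMIs) of MYC replicate 1, 27 of 113 cells had a Wfdc2 UMI, of which 23 had only 1. A single leukocyte barcode of 30329 UMIs held 61 of their 92 Wfdc2 UMIs. The share of leukocytes with a UMI after thinning was 7.08%, against 15.5% of the cells with 0 Ptprc UMIs.

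In the SHH tumours Wfdc2-positive cells with the choroid plexus transcript Ttr were found in 1 of the 2 animals. Ttr (transthyretin) is the leading transcript of the choroid plexus, whose epithelium is next to the subventricular zone. Of the 13 Wfdc2-positive cells of SHH replicate 1, 5 had more than 1% of their UMIs from Ttr, up to 66.4%, against 5 of 2311 other cells. Folr1 and Kcnj13, also made by choroid epithelium, were each found in 5 of the 13 cells, against 4 and 10 of the 2311 others. The 5 Ttr-rich cells held 6 of the 35 Wfdc2 UMIs, and the 1 high cell, with 15 Wfdc2 UMIs, had 0 Ttr UMIs. Fabp7, a gene of neural progenitors, was found in 6 of the 13 cells (46.2%) and 40.4% of the Wfdc2-negative cells, and the neural transcription factor gene Sox11 in 38.5% and 21.3%. In SHH replicate 2 a Ttr UMI was found in 0 of 77 Wfdc2-positive and in 4 of 1373 Wfdc2-negative cells, so Ttr was rare there on both sides. There Fabp7 was found in 61 of the 77 cells (79.2%) and 72.0% of the Wfdc2-negative cells, Sox11 in 61.0% and 48.2%, and Mycn in 45.5% and 37.4%. The neuronal genes Dcx and Tubb3 were found in 2 and 1 of the 77 cells and in 0 of the 13. These differences were not tested, and they do not set Wfdc2-positive against Wfdc2-negative tumour cells alone. Of the cells with 0 Ptprc UMIs, 482 of 2324 in SHH replicate 1 and 1099 of 1450 in SHH replicate 2 were immune-low. Krt8 was found in 1 Wfdc2-positive cell of each SHH library, against 2 of 2311 and 14 of 1373 Wfdc2-negative cells of SHH replicates 1 and 2.

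The rule that chose the genes named Krt8 and Col1a2 as partners, and the overlap was described at equal depth because cells with either partner were deeper (median 16453 against 7763 UMIs for Krt8 in MYC replicate 1). Krt8 was not listed in MYC replicates 2, 3 and 4, so Msln was present there without listed Krt8. In cells with 0 Ptprc UMIs thinned to 1000 UMIs, Msln was detected in 37.2% of 43 Krt8-positive and 16.4% of 189 Krt8-negative cells of MYC replicate 1, and in 9.22% of 217 and 2.70% of 10029 in MYC replicate 5. Wfdc2 was likewise more frequent beside Krt8: 27.9% against 12.7% in MYC replicate 1 and 7.37% against 1.35% in MYC replicate 5. The Wfdc2 intervals overlap in replicate 1 (16.7 to 42.7% and 8.68 to 18.2%) and not in replicate 5. In immune-low cells of replicate 1 the intervals overlap for both genes: Msln 37.2% (24.4 to 52.1%) against 21.3% (15.3 to 28.9%), and Wfdc2 27.9% against 15.4% (10.3 to 22.5%). In those of replicate 5 they do not: Msln 9.14% (5.86 to 14.0%) against 3.44% (3.06 to 3.88%), and Wfdc2 7.11% (4.28 to 11.6%) against 1.58% (1.32 to 1.89%). Overlap of intervals does not show equal shares, and its absence in 1 tumour is no test across tumours.

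With Col1a2 the pictures of the genes differed in MYC replicate 1, where Msln was more frequent beside Col1a2 and Wfdc2 was not. In MYC replicate 5 both genes were more frequent beside Col1a2. Msln was detected in 32.6% of Col1a2-positive and 12.6% of Col1a2-negative cells of MYC replicate 1, 45.3% and 6.54% of replicate 2, 36.9% and 28.8% of replicate 3, 28.6% and 3.50% of replicate 4, and 4.99% and 2.26% of replicate 5. Wfdc2 showed 14.6% and 16.1% in MYC replicate 1 and 2.45% and 1.21% in replicate 5. In immune-low cells the Msln shares had overlapping Wilson intervals in MYC replicates 1, 3 and 4: 33.0% of 88 Col1a2-positive cells (24.0 to 43.3%) against 17.6% of 91 without (11.1 to 26.7%), 36.9% of 65 against 45.5% of 44, and 34.8% of 23 against 38.7% of 62. In replicate 2 they were 45.3% of 53 against 20.9% of 67, with intervals that do not overlap (32.7 to 58.5% and 12.9 to 32.1%), and in replicate 5 they were 5.45% (4.52 to 6.56%) against 2.98% (2.57 to 3.45%).

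**Figure D3:**
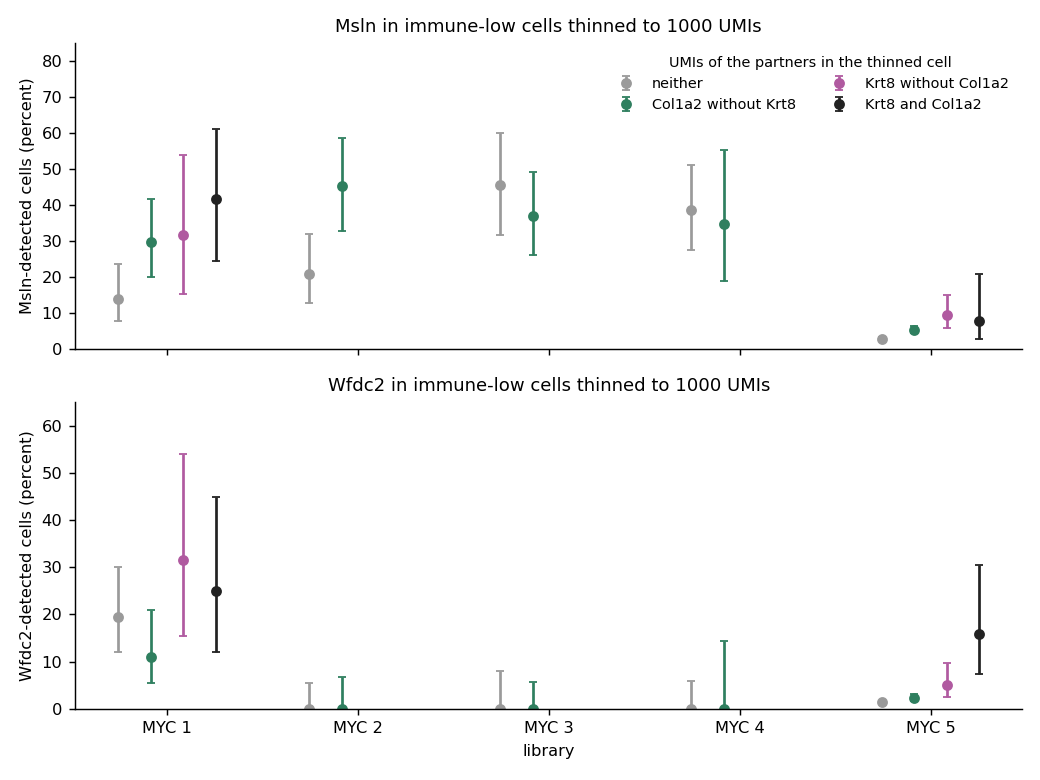
Share of immune-low cells (percent, cells thinned to 1000 UMIs) with Msln (top) or Wfdc2 (bottom) by whether the thinned cell held Krt8, Col1a2, both or neither, in the 5 MYC libraries; points are shares and bars Wilson 95% intervals. Cells with both partners had Msln in 41.7% and cells with neither in 13.9% in MYC replicate 1, while in MYC replicates 3 and 4 the intervals of cells with and without Col1a2 overlap.

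At full depth most high Msln cells also held collagen. Col1a2 was found in 43 of 46 high cells of MYC replicate 1, 28 of 28 of replicate 2, 32 of 32 of replicate 3, 15 of 18 of replicate 4 and 72 of 93 of replicate 5. Of all immune-low cells of these libraries it was in 139 of 179, 78 of 120, 104 of 109, 54 of 86 and 3347 of 7716, so in replicate 3 nearly every cell held it. The high cells were also deeper, with medians of 7612 to 20678 UMIs. Krt8 was found in 36 of 46 in MYC replicate 1 and 24 of 93 in replicate 5. Among high Wfdc2 cells Col1a2 was in 26 of 31 and Krt8 in 20 of 31 in MYC replicate 1, and in 46 and 17 of 73 in MYC replicate 5. In immune-low cells of MYC replicate 1 with both Krt8 and Col1a2, 65 of 77 held Msln (84.4%), against 12 of 27 with neither (44.4%). In MYC replicate 5 it was 101 of 343 (29.4%) against 241 of 3973 (6.07%). These shares are not matched for depth: cells with both partners had medians of 17735 and 9320 UMIs, and cells with neither 6708 and 6552.

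Msln and Wfdc2 overlapped in part. In thinned cells with 0 Ptprc UMIs, Wfdc2 was found in 9 of 47 Msln-positive cells (19.1%, 10.4 to 32.5%) and 27 of 185 others (14.6%, 10.2 to 20.4%) of MYC replicate 1, and in 12 of 291 (4.12%, 2.37 to 7.07%) and 139 of 9955 (1.40%, 1.18 to 1.65%) of MYC replicate 5. The intervals overlap in replicate 1 and not in replicate 5. Of cells high in either gene, 13 were high in both in MYC replicate 1, out of 46 and 31. In MYC replicate 5 0 cells were high in both, out of 93 and 73, although 17 high cells of each gene held at least 1 UMI of the other.

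Few relatives of the pair accompanied them. Of the mesothelin family and ligand list (Mslnl, Otoa, Strc, Muc16), Muc16 and Strc were listed in no table, and the mesothelin-like gene Mslnl stood at 6.27 CPM in MYC replicate 1, 23.4 in replicate 4 and 0.347 in replicate 5. It was 0 in MYC replicates 2 and 3, which had as much Msln, and in both SHH libraries. Genes for maturation of mesothelin were found in every tumour. The protease gene Furin stood at 19.1 to 39.9 CPM in immune-low cells of the 5 MYC libraries and at 7.86 and 9.74 CPM in the SHH libraries. GPI transamidase genes (Pigk, Pigs, Pigt, Pigu, Gpaa1), whose products attach GPI anchors, had UMIs in all 7 libraries.

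Among genes of the WFDC list, Slpi, a secreted leukocyte protease inhibitor, stood at 81.1 CPM in immune-low cells of MYC replicate 1, 10.0 in replicate 5, 5.76 in replicate 2, 3.93 and 0.238 in SHH replicates 1 and 2, and 0 in MYC replicates 3 and 4. The highest Slpi and the highest Wfdc2 were thus in the same tumour. Wfdc1 stood at 24.9 CPM in SHH replicate 2 and 12.7 in MYC replicate 4. Wfdc17 and Wfdc21, which myeloid cells make, also belong to this list. The whole list summed to 3.50 to 123 CPM in immune-low cells of the 7 libraries and to 48.6 to 4781 CPM in cells with 1 or more Ptprc UMIs.

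The MYC and SHH animals were compared across all genes by summing the counts of cells with 0 Ptprc UMIs per animal (edgeR quasi-likelihood test, Benjamini-Hochberg adjustment). The CPM of this and the following edgeR comparisons use library sizes that count only the UMIs of the genes tested, scaled by edgeR's TMM factors. They are thus not on the scale of the plain CPM above. Of 12979 genes tested, 43 passed (0.331%), 5 higher (0.0385%) and 38 lower (0.293%) in MYC, and 1694 had an unadjusted p under 0.05. None of the tested genes related to the pair was among them: 0 of 1 of the mesothelin family list, 0 of 7 of the maturation list and 0 of 4 of the WFDC list. In simulated counts this fit recovered 4 of 64 changes of 4-fold (6.25%), so not passing does not show equal levels. Furin, 1 of the 7 tested maturation genes, stood at 43.2, 33.8, 67.2 and 36.1 CPM in MYC animals A to D and at 17.0 and 10.5 in the SHH animals. Its groups do not overlap, but how many of all tested genes separate these few animals in this way was not counted. That is 45.1 ± 15.3 CPM in MYC (SD, n = 4 animals) and 13.8 ± 4.57 in SHH (SD, n = 2), a log2 difference of 1.71 (SE 0.45, edgeR adjusted p = 0.208); DESeq2 gave an adjusted p of 0.00876. Slpi stood at 167 ± 160.4 and 37.3 ± 33.7 CPM (edgeR adjusted p = 0.521). Median log2 differences were 0.27 for the maturation list and 1.48 for the WFDC list, against 0.06 over all genes tested. Leaving out an animal left 1 call without MYC replicate 1, 3 without replicates 2 and 3, 1 without replicate 4, 0 without replicate 5, and 0 and 2 without SHH replicates 1 and 2. DESeq2 called 924 of the 12979 genes, Furin among them.

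The marker lists were read in the same fit, on the same TMM scale. No gene passed in the simple epithelial (13 tested), squamous and basal (5), airway and glandular (2), mesothelial (2), mesenchymal (11), haematopoietic (11), endothelial (5), mural (4), Schwann (3) or glial and neural (8) lists. Of 4 tested choroid and ependymal genes 1 passed, Ttr, at 0.0412 ± 0.0824 CPM in MYC and 1815 ± 2470 in SHH (log2 difference -13.84, edgeR adjusted p = 0.0488). Its adjusted p was 0.112, 0.0912, 0.0896 and 0.278 without MYC animals A to D, 0.0928 without SHH replicate 1 and 0.0421 without SHH replicate 2. The haematopoietic list differed in these summed cells as given above, and its part in the calls was not tested. In immune-low cells, where that list summed to 77.1 to 331 CPM in MYC and 399.7 and 98.6 in SHH, 478 of 11695 genes passed (4.09%), 230 higher (1.97%) and 248 lower (2.12%) in MYC, among them 4 of 11 mesenchymal genes, each higher in MYC. Among these 4 was Col1a2 (log2 difference 8.09), which the rule named as a partner and which is therefore described without a p-value. The others were Col1a1 (log2 difference 5.48, edgeR adjusted p = 0.021), Col5a2 (3.55, 0.0269) and the mesenchymal transcription factor gene Prrx1 (3.63, 0.0339). Lower in MYC were Ttr, the glial and neural genes Fabp7, Sox11 and Gfap, and Calb2.

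Several marker genes of the usual Msln tissue were nearly absent. Of the 9-gene mesothelial list, Bnc1 and Muc16 were listed in no table, Upk1b had no UMI in immune-low cells, and Upk3b, which marks mesothelium together with Msln, had 2 UMIs, both in MYC replicate 5. Calb2 was at 0 in MYC replicates 1 to 4 and at 1.93 CPM in replicate 5, against 72.1 and 71.3 CPM in the SHH libraries. The list summed to 1.15 to 54.5 CPM in MYC and 72.1 and 73.2 CPM in SHH. Most of the 54.5 CPM of MYC replicate 1 was Krt19 (41.2 CPM), which is also in the simple epithelial list. The rest was Rspo1 (13.3 CPM, in 11 cells), which stood at 0.842 CPM in MYC replicate 5 (49 cells). Lrrn4 had 2 UMIs in MYC replicate 4 and 1 in replicate 5, and Wt1 had 4 in MYC replicate 5 and 5 in SHH replicate 2. The 11-gene airway and glandular list summed to 32.9 and 13.5 CPM in immune-low cells of MYC replicates 1 and 5, the MYC libraries with the most Wfdc2, to 6.91 in replicate 2 and to 0 in the others, SHH included. In replicate 1 it consisted of Cyp2f2 (15.7 CPM), Reg3g (10.6) and Ltf (6.66), and in replicate 5 mostly of Reg3g (9.36), Scgb3a1 (2.92) and Cyp2f2 (1.09). The club-cell gene Scgb1a1 had 4 UMIs, all in replicate 5.

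The epithelial lists were highest in the basal cerebrum tumours, as was Wfdc2 among MYC tumours. In immune-low cells the simple epithelial list summed to 2405 and 1469 CPM in the basal cerebrum tumours (MYC replicates 1 and 5), against 47.0 to 242.2 in MYC replicates 2 to 4 and 353.9 and 327 in SHH. The squamous and basal list, led by Sfn, summed to 1241 and 772 CPM in the former and to 3.45 to 99.9 in the other MYC tumours. Msln had no such division, since MYC replicates 2 to 4 were among its highest libraries. The mesenchymal list summed to 1753 to 3196 CPM in all 5 MYC libraries and to 125.8 and 145.9 in SHH.

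Inside tumours, Msln-positive immune-low cells did not have one common makeup of these lists at full depth. In MYC replicate 2 the mesenchymal list summed to 3902 CPM in 50 Msln-positive and 1942 in 70 Msln-negative cells, whereas in MYC replicate 1 it was 2671 in 110 and 4821 in 69. The squamous list was higher in positive cells of both basal cerebrum tumours, at 1407 against 729 CPM in replicate 1 and 1040.3 against 735 in replicate 5. In MYC replicate 4 the 35 Msln-negative cells held 5112 CPM of the Schwann list, markers of nerve sheath cells, against 28.7 CPM in the 51 positive cells. For Wfdc2 the simple epithelial list was higher in positive cells of MYC replicate 1 (2604 against 2094 CPM) and lower in MYC replicate 5 (1036 against 1497).

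Smarcb1, the floxed gene, was read in the same cells. Which exons are removed is not given in the sources used here, so a 3′ tag may lie outside the deleted part and is no proof of deletion. In cells with 1 or more Ptprc UMIs Smarcb1 stood at 23.2 to 48.9 CPM in all 7 libraries. In Msln-positive immune-low cells it stood at 3.11 CPM in MYC replicate 1 (6 UMIs), 15.1 in replicate 2 (6 UMIs, in 2 of 50 cells), 0.924 in replicate 3 (1 UMI), 0 in replicate 4 (0 of 382983 UMIs) and 0.949 in replicate 5 (7 UMIs in 767 cells). All 5 values were below those of the leukocytes of the same tumour. Msln-negative immune-low cells had 0, 42.4, 8.69, 45.6 and 1.73 CPM, higher than Msln-positive cells in 4 of 5 libraries. The 35 negative cells of MYC replicate 4 are those with the high Schwann list, and its part in this difference was not tested. Wfdc2-positive immune-low cells held 3 Smarcb1 UMIs in MYC replicate 1, 2 in MYC replicate 5 and 0 in each SHH library (of 248681 UMIs in SHH replicate 2).

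**Figure D4:**
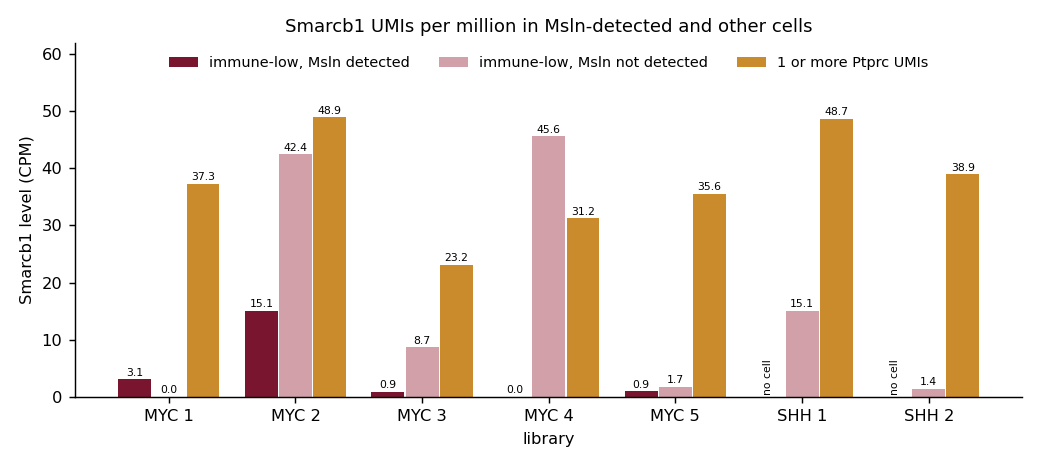
Smarcb1 level (CPM) in Msln-positive immune-low cells (dark red), Msln-negative immune-low cells (pink) and cells with 1 or more Ptprc UMIs (ochre) of each library; each bar is the sum over the cells of 1 library, and "no cell" marks SHH libraries, where Msln was not listed. Msln-positive cells lay at 0 to 15.1 CPM and leukocytes at 23.2 to 48.9 CPM.

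Msln-positive and Msln-negative immune-low cells of the 4 MYC animals were compared across other genes, with cells thinned to 1000 UMIs and the animal as a block. The sides held 45 and 134 cells in animal A (replicate 1), 82 and 147 in B (replicates 2 and 3), 32 and 53 in C (replicate 4) and 277 and 7439 in D (replicate 5). Of 1506 genes tested 1 passed (0.0664%, edgeR), and 109 had an unadjusted p under 0.05. The gene that passed was Timp2, an inhibitor of matrix metalloproteinases, chosen by the rule of the 10 smallest p-values. Its level in positive and negative cells was 140.2 and 69.0 CPM in animal A (5 and 7 UMIs), 1077 and 368 in B, 1123 and 323 in C, and 608 and 150.2 in D. It was higher in 4 of 4 animals, with a log2 difference of 1.76 (SE 0.20, edgeR adjusted p = 0.0271). Without animal A, B or D the adjusted p was 0.127, 0.566 or 0.272, and at full depth, where none of 8109 genes passed and 320 had an unadjusted p under 0.05, it was 0.985 with a log2 difference of 1.37. With no animal block it was 0.9997.

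The other 9 genes with the smallest p did not pass. The calcium-binding protein gene S100a13 had log2 differences of 1.39, 1.23, 0.95 and 0.94 in animals A to D (edgeR adjusted p = 0.115). The membrane-binding annexin gene Anxa2 had 0.64, 0.87, 0.54 and 0.70 (edgeR adjusted p = 0.283), and Ahnak, a giant scaffold protein gene, 1.04, 0.57, 1.10 and 1.18 (edgeR adjusted p = 0.283). These genes and Ecm1 were higher in positive cells of 4 of 4 animals, but Ecm1 rests on 13 and 3 UMIs in animal A and 2 and 2 in C. Car2, which encodes a carbonic anhydrase, was lower in 4 of 4 (fitted log2 difference -3.02, SE 0.57, edgeR adjusted p = 0.208). Its differences ran from -0.98 in animal A to -7.96 in C, with 0 and 10 UMIs in C and 1 and 117 in D. Gsta4, Spp1 (osteopontin), Serping1 (the C1 inhibitor) and Cst6 (a cystatin) were higher in 3 of 4, the exception being animal C, which had at most 6 UMIs of each on either side. Of list genes tested in this split, 0 of 3 simple epithelial, 0 of 1 squamous, 0 of 6 mesenchymal and 0 of 1 Schwann genes passed.

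**Figure D5:**
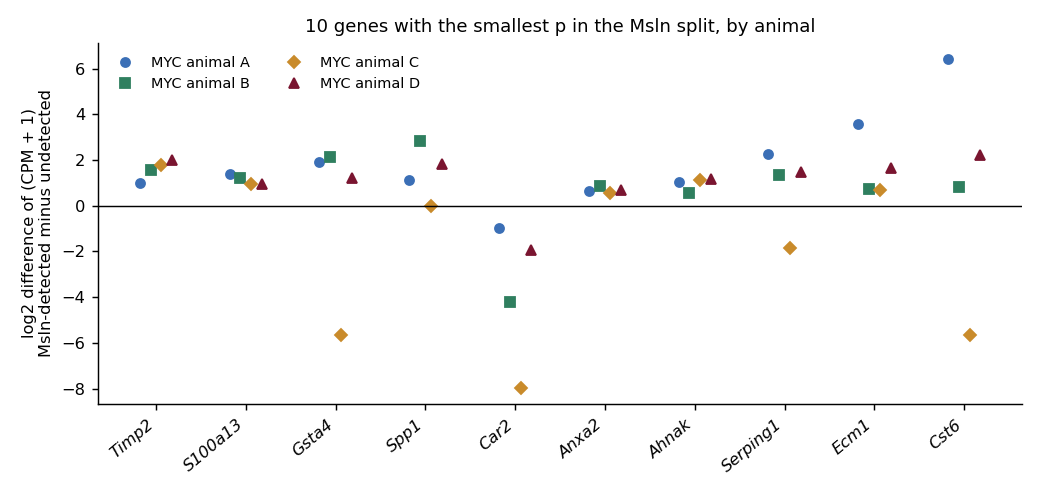
Log2 difference of (CPM + 1) between Msln-positive and Msln-negative immune-low cells thinned to 1000 UMIs, for the 10 genes with the smallest p; each point is 1 MYC animal (A to D). Timp2 lay above 0 in 4 of 4 animals, and animal C lay at or below 0 for Gsta4, Spp1, Serping1 and Cst6.

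For Wfdc2 only animals A and D had 20 or more positive cells (33 and 133), so this comparison rests on 2 animals. Of 2143 genes tested 1 passed (0.0467%, edgeR), with 191 at an unadjusted p under 0.05. It was Pglyrp1, a peptidoglycan recognition protein gene of innate defence, at 6937 CPM in positive and 2914 in negative cells of animal A and at 330.5 and 116.5 in animal D (log2 difference 1.35, SE 0.18, edgeR adjusted p = 0.0172). With no animal block its edgeR adjusted p was 0.9999. At full depth its log2 difference was 0.34 with an edgeR adjusted p of 0.785, and 4 other genes of 10669 passed (0.0375%), 3 higher (0.0281%) and 1 lower (0.00937%). S100a4 and Gchfr, a regulator of tetrahydrobiopterin synthesis, were higher in both animals (log2 differences 1.39 and 1.37, edgeR adjusted p = 0.053 for each). Taldo1 and Timp2 were higher and Tfpi, Cyr61 and Mgp lower in both, with edgeR adjusted p from 0.107 to 0.127. In animal A, Tfpi rests on 0 and 1 UMIs. Epyc and Crabp1 rested on animal D alone, since animal A had 1 and 0 UMIs of them. Of the lists 0 of 8 simple epithelial, 0 of 3 squamous, 0 of 7 mesenchymal and 0 of 1 Schwann genes passed.

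The genes most like Msln were ranked by the mean Pearson correlation over thinned immune-low cells of the 5 MYC libraries, among 1273 genes. The leading 5 were S100a6 (mean r 0.211, 0.066 to 0.405 over libraries), Meg3 (0.206), Malat1 (0.197), Lgals1 (0.195) and Anxa2 (0.183), whereas Col1a2 ranked 64th at 0.087. For Wfdc2, over 2 libraries and 1958 genes, they were Ly6a (0.180), Ifitm1 (0.176), Sys1 (0.165), Zbtb7a (0.147) and Ddx3x (0.147), and in MYC replicate 5 none of these exceeded 0.0526. Cells of a library share its depth and free RNA, and correlations this weak in sparse counts are no finding.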

How the data were processed

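The deposited files hold raw UMI counts per gene and barcode, unnormalised whole numbers made by the authors, 1 table per library; per the submitters' processing notes, Cell Ranger 2.0.2 and the mm10 build were used. Viable 7-AAD-negative cells were sorted before droplet capture with 3′ chemistry, per the labels. Each table lists only genes seen in 3 or more barcodes; unlisted genes were set to 0. Barcodes with fewer than 500 UMIs, fewer than 200 genes or over 20% mitochondrial UMIs were dropped, leaving 23938 of 24433. The top 0.8% per 1000 cells by Scrublet score (scanpy 1.11.5) were removed as doublets: 2039 cells, 1861 of them in MYC replicate 5. Scores need 200 cells, so the 183 of MYC replicate 3 have none. CPM are a gene's UMIs over all UMIs of the cells summed, times 1000000. Beside edgeR fits, library sizes count only the UMIs of genes kept by the filter and are scaled by TMM factors. Counts were summed per animal and tested with edgeR 4.0.16 (TMM, filterByExpr, quasi-likelihood F test, threshold 0.05) in R 4.3.3, with DESeq2 1.42.0 as an alternative. Sides of a split needed 20 or more cells per animal. Standard errors of log2 differences were derived from edgeR's F statistics.

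The fits were tried on simulated counts with known changes. Of 4-fold changes, 4 of 64 (6.25%) were recovered between MYC and SHH, 12 of 59 (20.3%) in the Msln split and 21 of 67 (31.3%) in the Wfdc2 split. Of 64-fold changes it was 62 of 66 (93.9%), 45 of 72 (62.5%) and 62 of 71 (87.3%). A gene that did not pass may therefore still differ. Named genes were the members and their partners, the 5 genes most like each member, up to 4 leading genes of each list, and, since fewer than 5 genes passed in each split, the 10 smallest p-values. Members and gene lists were chosen with earlier results of these data known. Sequences and coordinates are from GENCODE for GRCm38. Sides of a split come from the same animal, so the animal was the block in those fits.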

Additional observations from a re-analysis of the deposited data

Results flagged for a closer look

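Among 18 groups of 4 or 5 values examined for a sample far from the others, 6 had one. Immune-low cells are a part of the cells with 0 Ptprc UMIs, so groups share cells. Some groups also hold the levels and shares of the pair itself. The count is therefore a description and cannot be set against a chance rate. MYC replicate 1 was far above the other 4 MYC libraries in Wfdc2, by detection share (44.4% of cells with 0 Ptprc UMIs and 50.8% of immune-low cells) and by level (1029.6 and 1143 CPM). These 4 values come from the same cells. MYC replicate 5 was far below the other 4 MYC libraries in the Msln level of immune-low cells, at 55.2 CPM. Gsta4, a glutathione transferase gene, had a log2 difference of -5.66 between Msln-positive and Msln-negative cells of MYC animal C, against 1.22 to 2.14 in the other 3 animals; it rests on 0 and 2 UMIs.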

How the results depend on the processing

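Counts of passing genes depended strongly on the processing. Between MYC and SHH, 43 genes passed with edgeR, 924 with DESeq2 (521 higher and 403 lower, against 5 and 38), 478 in immune-low cells (230 higher, 248 lower), 78 with the libraries of 1 animal kept separate, and 0 to 3 when leaving out each animal in turn. For the Msln split, 1 gene passed with the animal block, 0 with no replicate block, 4 with DESeq2, 42 without a filter on low counts, 60 in all cells with 0 Ptprc UMIs, 0 without thinning, and 0 to 8 when leaving out each animal in turn, with 8 reached without MYC replicate 4. For the Wfdc2 split, 1 gene passed with the block, 0 with no replicate block, 39 without TMM factors, 117 without a filter on low counts, 22 with putative doublets kept, 4 without thinning and 85 in all cells with 0 Ptprc UMIs. Leaving out an animal was not possible there, since 1 animal leaves no residual degrees of freedom. The cause of these changes was not tested, except that the wider cell class and the missing filter change the genes tested.

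The Wfdc1 log2 difference between MYC and SHH turned from -1.97 to 8.26 without SHH replicate 2 (range over left-out animals -2.97 to 8.26), and that of Wfdc17 from 0.79 to -0.65 without MYC replicate 4 (range -0.65 to 1.88). Neither passed. Of the other recomputed log2 differences of named genes, 383 kept direction and call, 72 newly passed and 12 no longer passed. Detection shares moved beyond counting error in 18 recomputations and not in 38, levels in 13 and not in 29, and shares by partner in 24 and not in 42. The unmoved detection shares and levels include Msln in both SHH libraries and Wfdc2 in MYC replicates 2 and 4. Neither gene is listed there, so these values could not move. Of the 18 moved detection shares, 9 came from thinning, which can only lower detection. The tallies are therefore a description and no measure of robustness. Depth limits which genes the splits could test: 1506 of thinned Msln sums against 8109 at full depth.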
